A study of Homo sapiens with 9 samples.

Results

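The comparison set SMS-KCNR cells that had received simvastatin together with mevalonate against cells that had received the solvent DMSO alone. It asked which genes still differed from DMSO when mevalonate was supplied. SMS-KCNR is an established human neuroblastoma line, a tumour of the sympathetic nervous lineage, grown with fetal bovine serum. It rests on 6 of the 9 arrays of the series, 3 labelled DMSO and 3 labelled with 5 µM simvastatin plus 2 mM mevalonate, all taken at 30 hours. The remaining 3 arrays, with 5 µM simvastatin alone for the same time, served to define the level from which a gene came back. No group received mevalonate without the drug, so what mevalonate does alone and what remains of the drug cannot be told apart. Words such as stayed, returned and gone compare means of separate samples, and no gene was followed over time. All 14884 genes with a name were compared, with 1 probeset (the array's set of probes for a transcript) per gene. The design text calls the samples independent but does not name separate cultures, so the p-values measure only how much these arrays vary, part of which may be technical.

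Simvastatin blocks HMG-CoA reductase, the enzyme that makes mevalonate. Mevalonate is the source of cholesterol and of the isoprenoids farnesyl and geranylgeranyl diphosphate, which anchor signalling and trafficking proteins in membranes, and of ubiquinone and dolichol. Cells sense falling sterol through SCAP and INSIG proteins, which release the SREBP transcription factors to turn on cholesterol and fatty acid enzymes. A separate programme, driven by the transcription factor ATF4, raises amino acid synthesis and tRNA charging genes when amino acids or protein folding are disturbed. Exogenous mevalonate enters the pathway below the blocked step.

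Values are the deposited log2 values, on which 1 unit is a 2-fold difference, and a difference is written as the first group minus DMSO. Across all named genes, DMSO arrays correlated with each other at r from 0.9953 to 0.9958 and with the simvastatin plus mevalonate arrays at 0.9941 to 0.9958. DMSO and simvastatin arrays correlated at 0.9900 to 0.9917. Of 10 markers of noradrenergic neuroblastoma, 9 were measured, and all 9 lay above 5.19, the median of all probesets, on the mean of the arrays. Half-widths of the 95% intervals from limma, the linear model used for every test, had a median of 0.165 log2, so differences much smaller than this were not resolved by 3 arrays per group. Passing after adjustment over all genes took more, and the smallest difference to pass in the main test was 0.33 log2.

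Of 14884 genes, 11 differed between simvastatin plus mevalonate and DMSO (limma, adjusted p under 0.05), which is 0.0739% of those tested, with 5 higher (0.0336%) and 6 lower (0.0403%). Against the same DMSO arrays, simvastatin alone had changed 1988 genes (13.4%), 890 upward (5.98%) and 1098 downward (7.38%). The genes that stayed higher were the sterol enzymes HMGCS1, ACAT2 and MSMO1 and the amino acid enzymes ASNS and PSAT1. STC1 stayed lower. DAAM1, SYT11, TMOD1 and MIR548H3 had risen with the drug and lay below DMSO when mevalonate was present, and MEG3 was lower than DMSO with mevalonate while its difference with simvastatin alone did not pass the test. None of the 11 reached 2-fold: sizes ran from 0.33 to 0.71 log2. In all 11 the groups did not overlap, as in 16.5% of all genes, and 1635 genes (11.0%) reached an unadjusted p under 0.05. Without any 1 of the DMSO arrays, without simvastatin plus mevalonate replicate 1, or with only the 2 groups in the fit, 0 genes passed in limma (1307 to 1671 at an unadjusted p under 0.05). Without simvastatin plus mevalonate replicate 2 or 3, 2 and 3 genes passed, among them HMGCS1 each time, and a fit whose variance prior follows the expression level (limma-trend, robust) called 223 genes (1.50%), all 11 among them, with 70 higher and 153 lower. Among genes above the median of all probesets 105 passed, 26 higher and 79 lower. The last gene to pass was TMOD1, with an adjusted p of 0.0387, and the next was CHD7, with 0.0532 (limma).

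**Figure D1:**
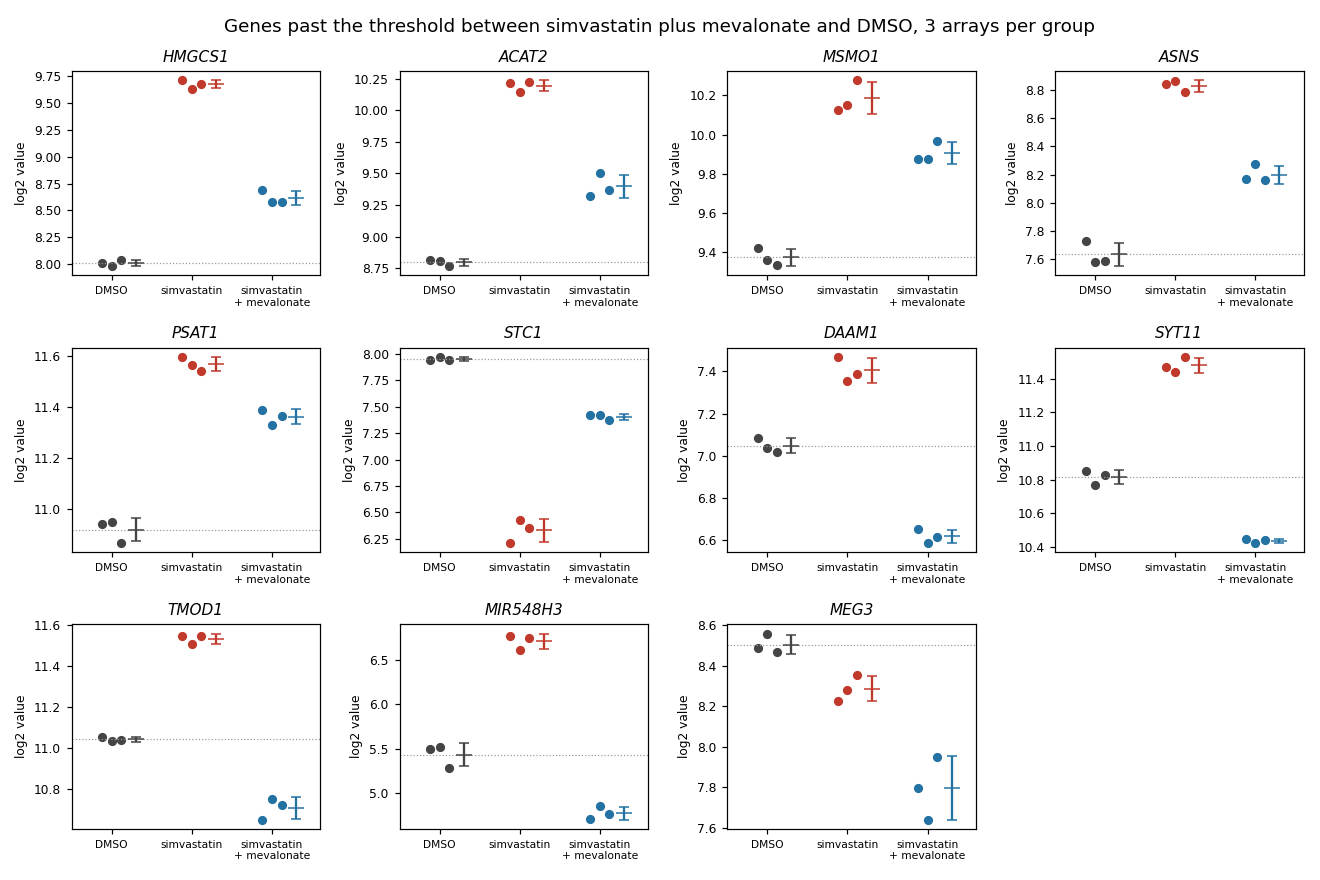
Log2 values (vertical axis, a separate scale for each gene) of the 11 genes that passed the test between simvastatin plus mevalonate and DMSO. Points are single arrays (3 per group), the bar beside them is the group mean ± SD, and the dotted line is the DMSO mean; the blue points never overlap the grey ones, lying between DMSO and simvastatin for 6 genes and on the far side of DMSO from simvastatin for DAAM1, SYT11, TMOD1 and MIR548H3.

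The clearest differences from DMSO lay in cholesterol synthesis. HMGCS1, the cytosolic HMG-CoA synthase that makes the substrate of the blocked enzyme, read 8.01, 7.98 and 8.04 on the DMSO arrays, 9.71, 9.63 and 9.68 with simvastatin, and 8.69, 8.58 and 8.58 with mevalonate added. The 3 groups did not overlap, and the mevalonate arrays lay nearer to DMSO than to the drug. HMGCS1 was 0.60 ± 0.05 (SE) above DMSO, 1.52-fold (limma, adjusted p = 0.0129), so that 63.7% of its rise of 1.66 was gone. ACAT2, the thiolase that joins acetyl-CoA units at the first step, read 8.81, 8.81 and 8.77 with DMSO, 10.21, 10.15 and 10.23 with simvastatin, and 9.32, 9.50 and 9.37 with mevalonate. It stayed 0.60 ± 0.05 higher, 1.52-fold (limma, adjusted p = 0.0176), with 57.0% of the rise gone. MSMO1, the oxidase that removes methyl groups from the sterol nucleus, had the smallest return of the 3, with 34.4% of its rise of 0.81 gone. It read 9.42, 9.36 and 9.34 with DMSO, 10.12, 10.15 and 10.28 with simvastatin, and 9.87, 9.87 and 9.97 with mevalonate. Its mevalonate arrays were closer to simvastatin than to DMSO, at 0.53 ± 0.05 above DMSO (limma, adjusted p = 0.0183).

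The promoters of HMGCS1 and MSMO1 are shown because both genes stayed high together and both carry the CCAAT pentamer bound by NF-Y, a factor that works beside SREBP at sterol genes. Sequences are from RefSeq (GRCh38.p14), run 5′ to 3′ on the gene's strand from 250 bases before the start to 50 after it, and have CCAAT, or ATTGG where it lies on the other strand, in capitals. HMGCS1 (chr5:43313363-43313662, minus strand, 1 of 2 listed starts, the one with more matches) has 2 matches, and MSMO1 (chr4:165327419-165327718, plus strand) has 4.
HMGCS1: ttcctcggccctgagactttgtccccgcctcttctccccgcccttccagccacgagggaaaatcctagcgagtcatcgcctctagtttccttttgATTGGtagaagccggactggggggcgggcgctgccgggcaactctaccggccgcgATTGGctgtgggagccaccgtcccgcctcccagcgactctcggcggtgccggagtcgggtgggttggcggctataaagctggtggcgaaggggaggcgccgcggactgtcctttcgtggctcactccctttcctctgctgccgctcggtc
MSMO1: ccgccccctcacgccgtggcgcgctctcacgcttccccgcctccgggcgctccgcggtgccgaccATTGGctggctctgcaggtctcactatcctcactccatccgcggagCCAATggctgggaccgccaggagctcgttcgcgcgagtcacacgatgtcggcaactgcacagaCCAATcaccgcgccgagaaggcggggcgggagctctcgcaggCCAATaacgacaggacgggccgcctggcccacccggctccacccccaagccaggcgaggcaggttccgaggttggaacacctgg
Of 14 cholesterol synthesis genes with a promoter in the table, 12 (85.7%) held CCAAT on either strand, against 39.7% of 27305 genes with a promoter (34.6% of 35116 promoters). In the mitosis list, whose genes fell with the drug, the share was as high, 29 of 33 (87.9%). The sterol element TCACNCCAC, searched in the same way, was found in 0 of the 14 and in 1.39% of all genes, and the E-box CACGTG in 0 of the 14 and 8.77% of all genes. Matches of different motifs were counted separately, whether or not they overlapped, and describe only the letters of this window.

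Across the cholesterol synthesis list, 16 enzymes were measured, 3 were higher by the test, 0 lower, and 14 of 16 means lay above DMSO against 50.2% of all genes. The list's median difference was 0.19 with mevalonate and 0.49 with simvastatin alone, beside 0.00 and 0.01 over all genes. With simvastatin alone 11 had risen and 1 had fallen. At an unadjusted p under 0.05 (limma) 9 of 16 were higher with mevalonate and 1 lower, beside 4.63% and 6.36% of all genes. In limma-trend 6 were called, all higher: ACAT2, DHCR7, ERG28, HMGCS1, MSMO1 and SQLE. The median of the list was 0.19, 0.21 and 0.18 on the 3 mevalonate arrays, which did not overlap the DMSO arrays. DHCR7, the last enzyme of the pathway, had risen most with simvastatin, by 2.02. It read 7.43, 7.17 and 7.22 with DMSO and 7.68 on all 3 mevalonate arrays, a difference of 0.41 ± 0.08 that did not pass (limma, adjusted p = 0.100), with 79.7% of the rise gone. Identical values on at least 2 of the 3 mevalonate arrays occurred in 2643 genes (17.8%), MSMO1 and STC1 included, and the error then rests on the spread shared with other arrays and genes. SQLE, which oxidises squalene, stood at 0.22 ± 0.05 and ERG28, a scaffold of the late enzymes, at 0.19 ± 0.04, neither past the test. HSD17B7, which has a near-identical pseudogene and lay close to the median of all probesets, stood at 0.45 ± 0.19. MVD, which makes isopentenyl diphosphate, met the definition of full return: not past the test, and its 95% interval within 0.25 log2 of the DMSO mean. It read 6.55, 6.53 and 6.57 with DMSO, 7.51, 7.42 and 7.37 with simvastatin, and 6.68, 6.73 and 6.62 with mevalonate. LBR, EBP and NSDHL met it too. Over the 8 genes of the list that simvastatin had changed by at least 0.5, the median share of the change that was gone was 64.0%, beside 84.5% for the 458 such genes in all.

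Of the sterol sensing genes, 5 had risen with simvastatin, and 3 of these met the definition of full return. Of 9 measured, 0 passed the test (limma), and the list's median was -0.03 against 0.30 with the drug alone. At an unadjusted p under 0.05 (limma) 1 was higher and 1 lower, beside 4.63% and 6.36% of all genes. INSIG1, the endoplasmic reticulum anchor that retains SCAP and SREBP when sterol is plentiful and is itself an SREBP target, had the largest difference of the list. It read 7.86, 7.78 and 7.81 with DMSO, 8.45, 8.25 and 8.38 with simvastatin, and 8.23, 8.24 and 8.15 with mevalonate. The mevalonate arrays did not overlap DMSO and lay just below the lowest simvastatin array. Its difference of 0.39 ± 0.06 did not pass (limma, adjusted p = 0.0587), and 28.5% of its rise was gone. In limma-trend INSIG1 was the only gene of the list to be called (adjusted p = 0.0057). SREBF2, the gene of the main cholesterol-regulating SREBP, stood at 0.13 ± 0.06 after a rise of 0.65. The 3 full returns were STARD4, a sterol carrier, INSIG2, a paralogue of INSIG1, and OSBP, an oxysterol-binding protein.

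Fatty acid genes, which SREBP factors also control, had none past the test. Of 18 measured, 0 passed (limma), and the median difference was 0.03 against 0.34 with simvastatin. At an unadjusted p under 0.05 (limma) 4 were higher and 1 lower, beside 4.63% and 6.36% of all genes. FASN, the fatty acid synthase, stood at 0.25 ± 0.05 and FADS1, a desaturase, at 0.22 ± 0.05. SCD, the stearoyl desaturase, at 0.14 ± 0.04, met the definition of full return, as did 7 others of the list. That definition allows a small difference: ACACA, 1 of these, stood at 0.13 ± 0.04 with an interval from 0.05 to 0.21. In limma-trend 4 of the 18 were called, all higher and all under-returned: ACACA, FADS1, FASN and SCD. LPIN1, a phosphatidate phosphatase, had risen with the drug and stood at -0.17 ± 0.06 with mevalonate, without passing the test.

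**Figure D2:**
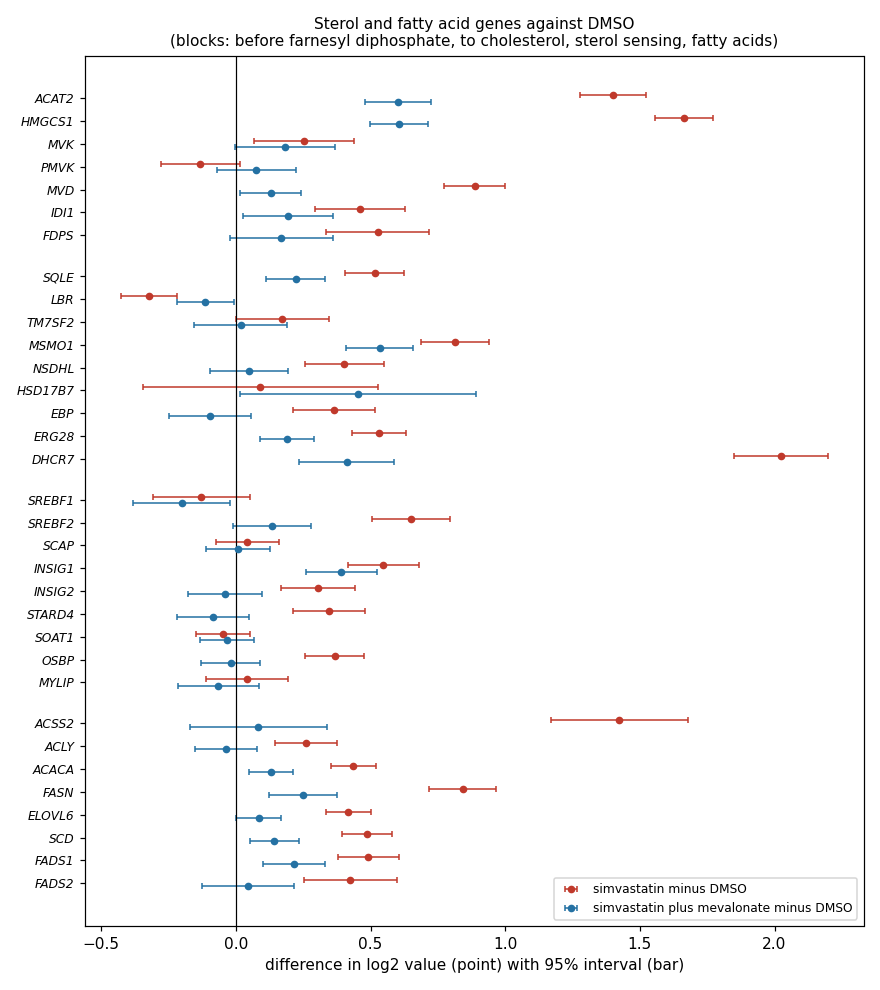
Differences from DMSO in log2 units (horizontal axis) of 16 cholesterol synthesis genes in pathway order, 9 sterol sensing genes and 8 of the 18 fatty acid genes. Points are limma estimates and bars their 95% intervals, red for simvastatin and blue for simvastatin plus mevalonate; HMGCS1, ACAT2 and MSMO1 have blue intervals far right of 0, while EBP, STARD4 and ACLY have blue intervals that span it.

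Of the amino acid genes, ASNS and PSAT1 passed, both higher. ASNS, which makes asparagine and is a standard ATF4 target, read 7.73, 7.58 and 7.59 with DMSO, 8.84, 8.86 and 8.78 with simvastatin, and 8.17, 8.27 and 8.16 with mevalonate. The 3 groups were separate, with the mevalonate arrays near the middle. ASNS stayed 0.57 ± 0.06 above DMSO, 1.48-fold (limma, adjusted p = 0.0183), with 52.6% of its rise gone. PSAT1, the aminotransferase of serine synthesis, read 10.94, 10.95 and 10.87 with DMSO, 11.60, 11.56 and 11.54 with simvastatin, and 11.39, 11.33 and 11.37 with mevalonate. Its mevalonate arrays lay closer to the drug than to DMSO. The difference was 0.44 ± 0.04, 1.36-fold (limma, adjusted p = 0.0176), and 31.7% of the rise of 0.65 was gone.

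The promoter of ASNS is shown for its match to TGATGNAA, the composite element at which ATF4 and C/EBP factors bind in amino acid response genes, and that of PSAT1 for 3 CCAAT matches. Both run 250 bases before to 50 after the start on the gene's strand, with the matches in capitals. ASNS (chr7:97872359-97872658, minus strand, 1 of 2 listed starts) has its match 68 bases before the start, and PSAT1 lies at chr9:78296875-78297174 on the plus strand.
ASNS: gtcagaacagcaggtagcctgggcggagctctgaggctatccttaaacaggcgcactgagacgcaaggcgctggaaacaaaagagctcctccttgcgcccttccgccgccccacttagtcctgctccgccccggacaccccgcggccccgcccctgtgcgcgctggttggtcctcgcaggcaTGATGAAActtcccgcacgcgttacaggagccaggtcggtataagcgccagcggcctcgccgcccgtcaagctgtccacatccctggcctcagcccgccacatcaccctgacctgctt
PSAT1: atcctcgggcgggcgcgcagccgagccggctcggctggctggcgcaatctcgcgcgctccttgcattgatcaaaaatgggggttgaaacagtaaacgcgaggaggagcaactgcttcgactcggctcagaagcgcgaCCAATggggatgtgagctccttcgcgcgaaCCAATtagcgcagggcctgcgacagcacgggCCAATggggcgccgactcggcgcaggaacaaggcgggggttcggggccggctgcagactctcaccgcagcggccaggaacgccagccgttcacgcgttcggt
TGATGNAA was present on either strand in 4 of 14 ATF4 targets and 7 of 14 aminoacyl-tRNA synthetase genes with a promoter, beside 4.46% of all genes. CCAAT was present in 8 and 7 of the 14.

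The aminoacyl-tRNA synthetases, which load amino acids onto tRNA, mostly had means above DMSO, although none passed. Of 17 measured, 15 means were higher and 0 passed (limma), and 13 reached an unadjusted p under 0.05, all higher, beside 4.63% of all genes. The list's median was 0.16, and 0.17, 0.16 and 0.13 on the 3 arrays, against 0.32 with simvastatin. The cysteine, glycine, alanine and asparagine enzymes had the largest differences, with CARS1 at 0.43 ± 0.09, GARS1 at 0.32 ± 0.04, AARS1 at 0.27 ± 0.04 and NARS1 at 0.26 ± 0.04. Their adjusted p in limma lay between 0.0546 (AARS1) and 0.132 (CARS1). In limma-trend 8 of the 17 were called, all higher.

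Members of the ATF4 target list differed in how far they had returned. Of 15 measured, 12 means lay above DMSO and ASNS alone passed. The median was 0.07 beside 0.31 with the drug alone. At an unadjusted p under 0.05 (limma) 4 were higher, beside 4.63% of all genes, and 0 lower. In limma-trend 3 were called, all higher: ASNS, DDIT4 and STC2. DDIT4, an inhibitor of the growth kinase complex mTORC1, read 6.33, 6.32 and 6.41 with DMSO and 6.84, 6.84 and 6.93 with mevalonate. The groups were apart by 0.52 ± 0.07, which did not pass (limma, adjusted p = 0.0587), after a rise of 1.12 with simvastatin. STC2, a secreted glycoprotein, stood at 0.32 ± 0.07 and GDF15, a stress cytokine, at 0.35 ± 0.09. GDF15 had been at 0.37 with simvastatin alone. TRIB3, a pseudokinase and equally a standard ATF4 target, stood at 0.00 ± 0.12 after a rise of 1.11, and ATF3 at -0.02 ± 0.11. For TRIB3 and ATF3 the intervals were wide, from -0.27 to 0.26 and from -0.27 to 0.22. In the serine and one-carbon list PSAT1 was the only gene of 9 to pass. MTHFD1L, a mitochondrial folate enzyme, stood at 0.29 ± 0.04 (limma, adjusted p = 0.0587) and read 8.82 on all 3 mevalonate arrays. PHGDH, the first enzyme of serine synthesis, stood at 0.21 ± 0.05, with simvastatin alone at 0.17, and TYMS, which makes thymidylate, at -0.17 ± 0.04. Endoplasmic reticulum chaperones and stress sensors had a median of 0.03, and 6 of 10 met the definition of full return, XBP1 and ATF6 among them.

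**Figure D3:**
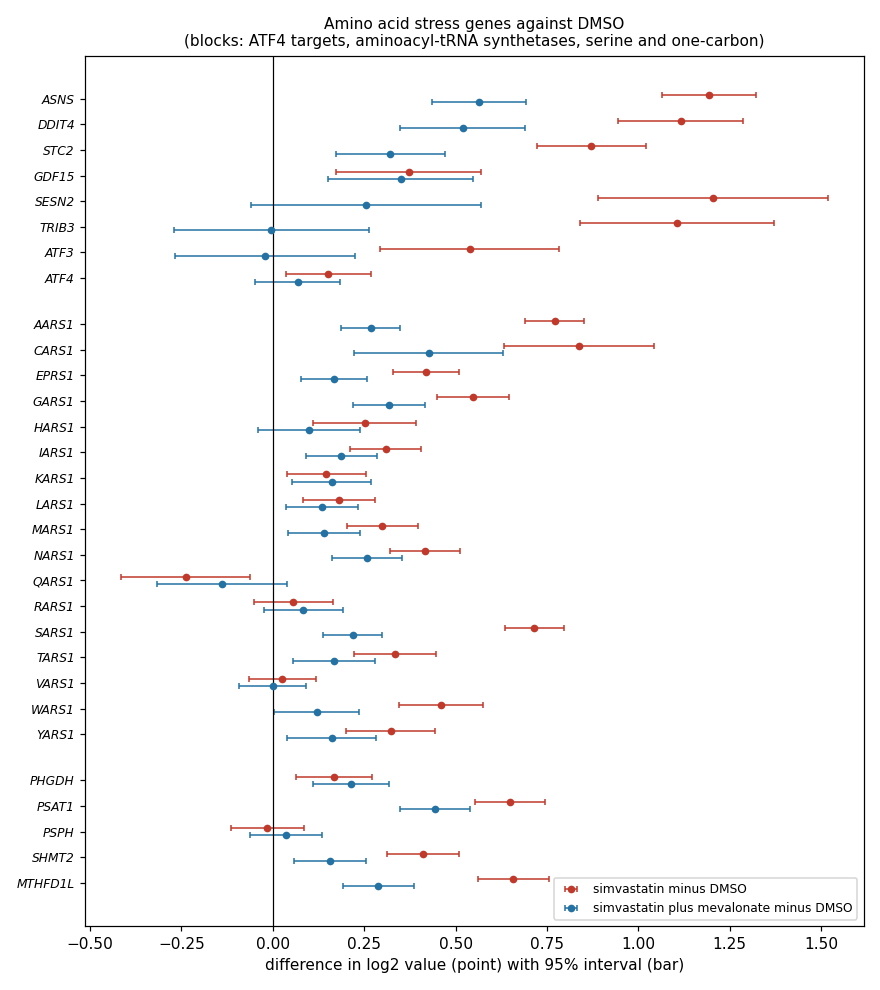
Differences from DMSO in log2 units (horizontal axis) of 8 of the 15 ATF4 targets, the 17 aminoacyl-tRNA synthetases and 5 of the 9 serine and one-carbon genes. Points are limma estimates and bars 95% intervals, red for simvastatin and blue for simvastatin plus mevalonate; most synthetases have blue points right of 0 and left of the red ones, and TRIB3 and ATF3 have blue points at 0.

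STC1, which encodes the secreted hormone stanniocalcin 1, was the only gene to fall with simvastatin and remain lower by the test. It read 7.94, 7.97 and 7.94 with DMSO, 6.21, 6.43 and 6.35 with simvastatin, and 7.42, 7.42 and 7.37 with mevalonate. The 3 groups did not overlap. It was 0.55 ± 0.06 lower than DMSO, 1.46-fold (limma, adjusted p = 0.0183), after a fall of 1.62 with the drug, so 66.4% was gone. STC1 was listed here with hypoxia and glycolysis genes, and of the 13 measured no other passed. ADM, a vasodilator peptide gene that had fallen by 0.64, and VEGFA, which had risen by 0.66, stood at -0.05 ± 0.08 and -0.04 ± 0.09.

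Passing beyond the DMSO level was found in 4 genes, all of which had risen with simvastatin and lay lower than DMSO with mevalonate. In limma-trend 30 genes did so, 24 of them in this direction and 6 that had fallen and lay above DMSO, CXCR4, FRZB, MFAP4, SYNPO2, GPR50 and DOK4. SYT11, a vesicle protein of the synaptotagmin family, read 10.85, 10.77 and 10.83 with DMSO, 11.47, 11.44 and 11.53 with simvastatin, and 10.44, 10.42 and 10.44 with mevalonate. Simvastatin raised it by 0.67, and with mevalonate it was 0.38 ± 0.04 below DMSO (limma, adjusted p = 0.0222). TMOD1, tropomodulin 1, which caps the slow-growing ends of actin filaments, read 11.06, 11.03 and 11.04, then 11.55, 11.50 and 11.55, then 10.65, 10.75 and 10.72 in the same order of groups. It was 0.33 ± 0.04 below DMSO (limma, adjusted p = 0.0387) after a rise of 0.49. DAAM1, a formin that nucleates actin filaments in Wnt signalling, read 7.09, 7.04 and 7.02 with DMSO, 7.47, 7.35 and 7.39 with simvastatin, and 6.65, 6.59 and 6.62 with mevalonate. It was 0.43 ± 0.05 below DMSO (limma, adjusted p = 0.0183) after a rise of 0.36. In DAAM1 the step below DMSO was larger than the rise above it, and in SYT11 and TMOD1 smaller. MIR548H3, a microRNA gene, went from 5.49, 5.52 and 5.28 to 6.77, 6.62 and 6.75 and then to 4.70, 4.85 and 4.76. Its difference of -0.66 ± 0.08 passed (limma, adjusted p = 0.0255), but with mevalonate it lay below the median of all probesets, and the probeset does not stand for a mature microRNA. HS3ST3A1, a heparan sulfate sulfotransferase gene picked after its values were seen, had the same pattern without passing. It read 6.81, 6.80 and 6.80 with DMSO, 7.94, 7.98 and 7.68 with simvastatin, and 6.19, 6.32 and 6.12 with mevalonate, 0.59 ± 0.08 below DMSO (limma, adjusted p = 0.0587).

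Immediate early genes, which serum and MAP kinase signals switch on within minutes, and KLF factors mostly had means below DMSO. Of 26 measured, 0 passed (limma), 19 means lay below DMSO, and 9 reached an unadjusted p under 0.05, all lower, beside 6.36% of all genes. The median was -0.10 with mevalonate against 0.35 with simvastatin, and -0.10, -0.01 and -0.14 on the 3 arrays, the second of which lay close to the DMSO arrays. EGR1, a zinc finger factor, stood at -0.35 ± 0.06 and DUSP6, the phosphatase of ERK, at -0.33 ± 0.07. With simvastatin alone EGR1 had been at -0.20 ± 0.06 and DUSP6 at 0.08 ± 0.07, neither past the test (limma). In limma-trend EGR1 was called lower with simvastatin alone as well as with mevalonate, and DUSP6 only with mevalonate. IER3 at -0.29 ± 0.07, KLF11 at -0.26 ± 0.09 and JUN at -0.23 ± 0.08 had risen. KLF2, a gene known to rise with statins, stood at -0.17 ± 0.12, and its DMSO arrays (6.29, 6.62 and 6.14) overlapped the mevalonate arrays (6.23, 6.10 and 6.24). SRF, a transcription factor, met the definition of full return at -0.14 ± 0.04 with an interval from -0.23 to -0.04. The median of 13 SRF and MRTF targets was 0.03 against 0.30 with the drug, and reached as low as -0.01 with 1 array left out.

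MEG3, a maternally expressed long non-coding RNA gene on chromosome 14, was the only gene to pass with mevalonate and not with simvastatin alone. It read 8.49, 8.56 and 8.47 with DMSO, 8.23, 8.28 and 8.35 with simvastatin, and 7.80, 7.64 and 7.95 with mevalonate. The groups stepped down without overlap, and the mevalonate arrays had the widest spread (SD 0.16, n = 3). The difference was -0.71 ± 0.08, 1.63-fold lower (limma, adjusted p = 0.0222), beside -0.22 ± 0.08 with simvastatin (limma, adjusted p = 0.115). A stretch from DLK1 to MEG9 around it, which holds a large cluster of imprinted microRNA genes, was examined after these values were seen. Of 56 genes measured there, 48 means lay below DMSO, with a median of -0.28, against 0.20 with simvastatin alone and -0.003 for the 1046 microRNA genes elsewhere. MEG3 alone passed, 21 with MEG3 included reached an unadjusted p under 0.05 in the lower direction and 1 in the higher, and 27 of the 56 lay above the median of all probesets. Over all genes 6.36% were lower at an unadjusted p under 0.05 and 50.2% of means lay above DMSO, and of the 1046 microRNA genes elsewhere 63 were lower at that p and 530 had means below DMSO. Genes of such a cluster can share a precursor transcript and are not independent. DLK1, which encodes a Notch-related surface protein of neuroendocrine cells, stood at -0.39 ± 0.06 (limma, adjusted p = 0.0587), with 7.79, 7.88 and 7.90 against 7.36, 7.54 and 7.50. MIR493 stood at -0.83 ± 0.13 and MIR329-1 at -0.67 ± 0.10, while both had been above DMSO with simvastatin.

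Nearly all genes that simvastatin changed did not pass the test against DMSO with mevalonate. Of the 1988 changed genes, 1163 (58.5%) met the definition of full return, 531 that had risen and 632 that had fallen. Without DMSO replicate 1, 2 or 3 the count was 684, 654 or 712. A further 815 (41.0%) were undecided, their intervals reaching past 0.25 log2, 6 (0.302%) were under-returned and 4 (0.201%) were beyond. For comparison, 51.0% of all 14884 genes had an interval within 0.25 log2. Of the 10 fully returned genes with the largest simvastatin changes, 8 had fallen with the drug. LINGO4, a neuronal surface protein gene, read 8.46, 8.33 and 8.48 with DMSO, 7.14, 7.33 and 6.92 with simvastatin, and 8.44, 8.45 and 8.36 with mevalonate. The last group lay inside the range of the first, at -0.01 ± 0.10 after a fall of 1.29. DBH, which makes noradrenaline, read 9.26, 9.29 and 9.26, then 8.01, 8.11 and 8.06, then 9.21, 9.24 and 9.19, so that a fall of 1.21 left -0.06 ± 0.04. NPY2R, a neuropeptide Y receptor gene, stood at 0.03 ± 0.09 after a fall of 1.01, LPCAT2, a phospholipid acyltransferase gene, at -0.04 ± 0.05 and CENPA, the centromeric histone, at -0.05 ± 0.06. TFAP2B, a sympathetic transcription factor, read 10.43 on each mevalonate array against 10.56, 10.54 and 10.61 with DMSO, a difference of -0.14 ± 0.04 that stayed inside the margin without the groups overlapping. TSPAN2, a tetraspanin gene that had risen by 0.93, stood at -0.06 ± 0.05.

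The share of the change that was gone could be given for 458 genes that simvastatin had changed by at least 0.5. It uses the same DMSO and simvastatin arrays that chose the genes, and 100% means the DMSO mean. Its median was 84.5%, with quartiles of 68.2% and 102%. It was under 50% in 30 genes and over 100% in 129. Genes that had risen had a median of 94.9% (202 genes; 90.4%, 88.2% and 96.3% on the 3 arrays), and genes that had fallen 78.4% (256 genes; 80.0%, 79.4% and 76.9%). On each array the median was higher for the risen than for the fallen genes. Of the risen genes, 43.6% lay past the DMSO mean, and of the fallen 16%. Without the mitosis genes the fallen ones had a median of 78.7%.

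**Figure D4:**
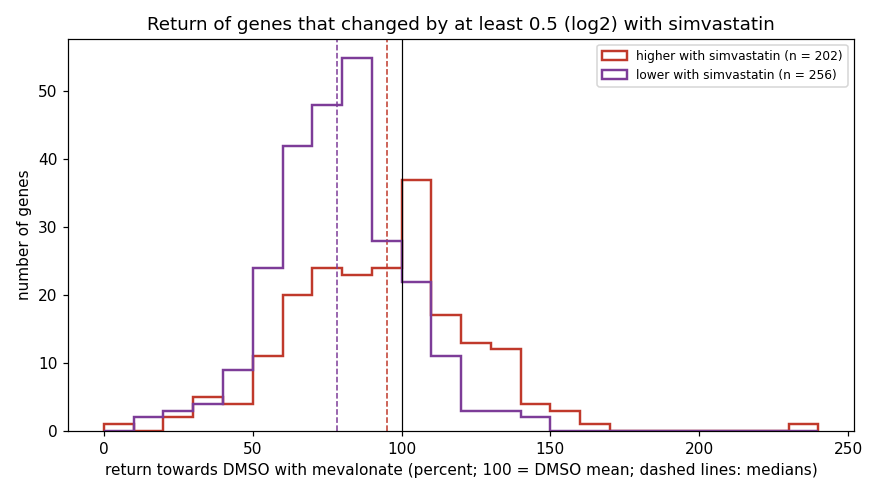
Number of genes (vertical axis) by the percentage of the simvastatin change that was gone with mevalonate (horizontal axis, 100 is the DMSO mean) for 202 genes that had risen (red) and 256 that had fallen (purple) by at least 0.5 log2. Dashed lines are the medians, 94.9% and 78.4%; the purple histogram peaks below 100 and the red one just above it.

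Genes of mitosis lay slightly below DMSO nearly throughout. All 37 measured had fallen with simvastatin, and with mevalonate 35 means were lower, 0 passed (limma) and 22 reached an unadjusted p under 0.05, all lower, beside 6.36% of all genes. The list's median was -0.15, the same on each mevalonate array, against -0.64 with the drug, and 16 genes met the definition of full return. HMMR, a spindle protein gene, read 9.28 ± 0.06 (SD, n = 3) with DMSO and 8.89 ± 0.07 with mevalonate, a difference of -0.39 ± 0.06 (limma, adjusted p = 0.0744). KIF14 at -0.27 ± 0.04 and KIF18A at -0.25 ± 0.06, motors of cytokinesis and chromosome alignment, and CCNB2, a mitotic cyclin, at -0.24 ± 0.04 followed. CCNB1, CDC20 and CENPA, which act at the same stage, stood at -0.05 ± 0.05, 0.03 ± 0.07 and -0.05 ± 0.06. In RNA from whole cultures, fewer cells in a phase and less RNA per cell cannot be told apart. Of 26 DNA replication genes 3 had risen and 9 fallen with the drug (median -0.12), and with mevalonate all 26 means lay below DMSO with a median of -0.11. None passed (limma), and 12 reached an unadjusted p under 0.05, all lower, beside 6.36% of all genes. GINS2, a part of the replicative helicase, stood at -0.24 ± 0.07, E2F1, the factor that opens S phase, at -0.19 ± 0.07 and GINS3 at -0.19 ± 0.04. In limma-trend 13 mitosis and 3 replication genes were called, all lower.

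Of 17 genes of noradrenergic identity 0 passed (limma), 5 were lower at an unadjusted p under 0.05, beside 6.36% of all genes, and 15 means lay below DMSO, with a median of -0.08 against -0.21 with the drug. In limma-trend 4 were called, all lower: ALK, CHGB, DLK1 and ISL1. DLK1, at -0.39 ± 0.06, had the largest difference of the list. TH and DDC, enzymes of catecholamine synthesis, GATA3 and CHGA met the definition of full return, as did DBH. CHGB, a granule protein gene, stood at -0.32 ± 0.05, ALK, the receptor kinase, at -0.24 ± 0.05 and ISL1, a homeodomain factor, at -0.20 ± 0.04, none past the test. Neuronal genes, 15 measured, had 10 means below DMSO and 5 above, with a median of -0.03 against 0.06 with the drug. None passed (limma), and at an unadjusted p under 0.05 4 were lower and 1 higher, beside 6.36% and 4.63% of all genes. Limma-trend called only DCX, which had the largest difference of this list. DCX, a microtubule protein of young neurons, read 7.37, 7.39 and 7.45 with DMSO, 6.76, 6.68 and 6.76 with simvastatin, and 7.12, 7.09 and 7.06 with mevalonate. The mevalonate arrays lay between the other groups, at -0.31 ± 0.04 (limma, adjusted p = 0.0573), and 53.5% of the fall was gone. Markers of other cell types showed 0 calls (limma). Of 17 mesenchymal markers 3 were lower at an unadjusted p under 0.05, beside 6.36% of all genes, and the list median was -0.04. LUM stood at -0.46 ± 0.07 and DCN at -0.40 ± 0.06, both matrix proteoglycans. They had fallen by 1.14 and 0.98 with simvastatin, and limma-trend called both as under-returned. Of 7 Schwann and glial markers 1 was higher at an unadjusted p under 0.05 (limma), and of 6 blood and endothelial markers 1, beside 4.63% of all genes. Their medians were 0.07 and 0.15, and 2 of these last 6 lay above the median of all probesets. Whether these markers have a part in the other results was not tested.

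A few genes, picked after their values were seen, stayed at the level they had with the drug. CPT1A, which admits fatty acids into mitochondria, read 8.63, 8.69 and 8.72 with DMSO, 8.28, 8.27 and 8.29 with simvastatin, and 8.24, 8.38 and 8.17 with mevalonate. The last 2 groups overlapped and both lay below DMSO, by 0.40 ± 0.06 with the drug and 0.42 ± 0.06 with mevalonate (limma, adjusted p = 0.0565 for the latter). CHD7, a chromatin remodeller, read 8.16, 8.14 and 8.19, then 7.89, 7.78 and 7.86, then 7.85, 7.82 and 7.82. Both groups again overlapped, at -0.32 ± 0.04 and -0.33 ± 0.04 against DMSO. TXNIP, which binds thioredoxin and restrains glucose uptake, stood at -0.42 ± 0.06 with mevalonate (limma, adjusted p = 0.0587) and -0.52 with the drug. Genes called in both comparisons in the same direction, with a difference at least as large with mevalonate as with simvastatin alone, numbered 0 in the main test (1 after quantile normalization and 2 after median centring) and 27 in limma-trend, CPT1A and CHD7 among them.

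Of the 29 gene lists examined, 4 had a member past the test and 25 had none. The respiratory chain, cytosolic ribosomal protein, interferon, autophagy and lysosome, BCL2 family, heat shock, YAP, LXR, p53 and ubiquinone and dolichol lists had medians between -0.07 and 0.04. At an unadjusted p under 0.05 (limma) 3 of 10 respiratory chain genes were lower and 1 higher, beside 6.36% and 4.63% of all genes. The BCL2 family had 2 of 14 lower, the p53 list 2 of 13 lower and 1 higher, and each other list at most 1. In limma-trend BMF and ULK1 were called lower and UQCRC2 higher, and no other gene of these lists. Among NRF2 targets TKT, a pentose phosphate enzyme, stood at 0.29, with a list median of 0.08. Differences of at least 0.5 log2 in either direction were found in 51 genes, 35 of them microRNA genes and 27 below the median of all probesets, so most of the largest differences came from dim probesets.

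**Figure D5:**
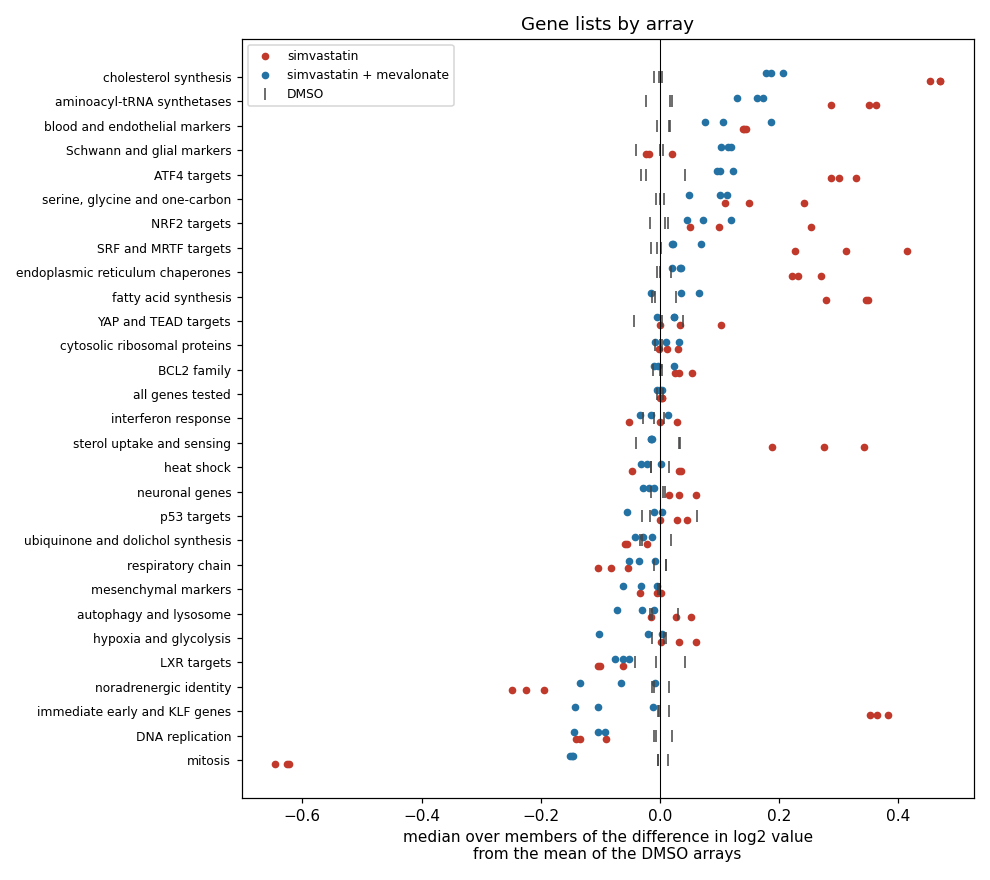
Median over the members of each gene list reported here of the log2 difference from the DMSO mean (horizontal axis), for each array. Red points are simvastatin, blue points simvastatin plus mevalonate and grey marks DMSO arrays; the blue points of cholesterol synthesis and aminoacyl-tRNA synthetases lie above all DMSO arrays and below the red points, and those of mitosis and DNA replication lie below all DMSO arrays.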

How the data were processed

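RNA of SMS-KCNR cells was hybridised to 9 one-channel Affymetrix whole-transcript arrays, 3 per group. The authors deposited 1 log2 value per probeset and array for 53617 probesets, a scale read from the values, which ran from 0.92 to 13.96. The submitters' processing notes name GCRMA, a background correction and normalization for such arrays, and HOMER, with no role or settings, and no genome build is named. Normalization between arrays hides a change that all genes share, and differences of dim probesets are poorly determined.

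Of the probesets, 16098 (30.0%) carried 1 gene symbol and 37519 none, and all named ones matched RefSeq (GRCh38.p14). For 779 genes with several probesets, the one with the highest mean over the 9 arrays was used. All 9 arrays entered 1 fit with 3 group means in limma 3.58.1 (R 4.3.3; lmFit and eBayes, without trend, not robust; 6 residual and 2.39 prior degrees of freedom). P-values of each comparison were adjusted over 14884 genes (Benjamini-Hochberg, threshold 0.05). Errors are limma's standard errors unless named SD. Under-return means that a gene changed with simvastatin and differed from DMSO in the same direction by less with mevalonate. Beyond means that it differed in the opposite direction. Full return means that it did not pass and its 95% interval lay within 0.25 log2 of 0. Genes were named by these classes (up to 10 each), by size (up to 12 per direction) and by list (up to 4 each), apart from those said to be picked later. A set of 29 gene lists (666 entries, 403 genes measured) was used for description only. The comparison, its lists and its rules were chosen with earlier results of these data known. The number of arrays limits the precision.

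The fit was tested on simulated arrays with known differences. It called 36.8% of simulated differences of 0.3 log2, 69.8% of those of 0.5 and 94.2% of those of 1. Alternatives were quantile normalization, median centring, the mean over probesets, a fit of 2 groups, eBayes with trend and robust, a filter on dim genes, adjustment over all probesets, the replicate number as a block, other margins and thresholds, and each array left out. The 2 fits with trend alone and robust alone were added after seeing the data. Replicate numbers did not pair the arrays (correlation of deviations between same-numbered DMSO and simvastatin plus mevalonate arrays from -0.081 to -0.009), so no block was used. MYCN and CDKN1A are not analysed here, and 1 of the lists, though counted among them, is not reported here.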

Additional observations from a re-analysis of the deposited data

How the results depend on the processing

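All 11 genes kept their direction and an unadjusted p under 0.05 in limma in each of the 19 alternatives, but their adjusted p ranged up to 0.191, so their number depended on the setting. It was 1 with adjustment over all probesets, 0 with only the 2 groups in the fit, 0 with the replicate block (1505 at an unadjusted p under 0.05), 105 among genes above the median of all probesets, 223 with trend and robust, and 225 with trend alone. It was 11 to 15 with the other scalings, robust alone and the mean over probesets. Leaving out 1 array gave 0 to 12. The same-numbered arrays did not deviate together (1 of 9 arrays correlated best with its own number), so the block gives no paired test.

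Under-returned genes (6) numbered 1 over all probesets, 56 above the median, 126 with trend and robust, 128 with trend alone, 0 with the replicate block and 0 at a threshold of 0.01. Genes without return (0) numbered 11 above the median, 27 with either trend fit, 1 with the mean over probesets, 2 with median centring and 1 with quantile normalization. Genes beyond DMSO (4) numbered 0 over all probesets, 18 above the median, 30 with either trend fit, 0 with the replicate block and 0 at 0.01. Genes called for simvastatin plus mevalonate but not for simvastatin alone (1) numbered 0 over all probesets, with the mean over probesets, the replicate block and 0.01, 20 above the median and 40 with either trend fit. Full returns (1163) numbered 573 over all probesets, 769 at a margin of 0.2, 593 at 0.01, 1454 at a margin of 0.3, 1508 above the median and 1575 with trend and robust. Undecided genes (815) numbered 524 at a margin of 0.3, 441 at 0.01 and 1209 at a margin of 0.2. Lists with a call (4) numbered 1 over all probesets, 19 with either trend fit, 13 above the median, and 0 with the 2 groups or the replicate block. With 1 array left out these ranges were 0 to 8 (under-return), 0 to 1 (no return), 0 to 3 (beyond), 654 to 1028 (full return), 652 to 882 (undecided), 0 to 1 (not for simvastatin alone) and 0 to 5 (lists). Of 134 named genes, 0 reversed a called direction in any of 19 settings. The fit with trend alone called 225 genes, near the 223 with trend and robust, and the fit with robust alone called 11. Causes of the other shifts were not tested.

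The medians of the cholesterol, aminoacyl-tRNA synthetase, mitosis, DNA replication and immediate early lists kept their sign under both other scalings and with each array left out. Those of the heat shock, SRF and MRTF, p53, BCL2, interferon and ubiquinone and dolichol lists did not. The medians of risen and fallen genes stayed apart, at 91.2% to 97.6% and 76.5% to 81.5% over 18 settings.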

Other observations

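The gene lists leave out probesets without a name. Of 37519 such probesets, 6 passed between simvastatin plus mevalonate and DMSO (limma, adjusted over all 53617), beside 1 named gene, HMGCS1, and 2984 (7.95%) reached an unadjusted p under 0.05.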
